A study of Mus musculus with 6 samples.

Results

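The 10 genes described here encode, with 1 exception, the precursors of neuropeptides. They are Sst (somatostatin), Npy (neuropeptide Y), Penk (proenkephalin), Pdyn (prodynorphin), Pomc (pro-opiomelanocortin), Tac1 (the precursor of substance P and neurokinin A), Cck (cholecystokinin), Vip (vasoactive intestinal peptide) and Crh (corticotropin-releasing hormone), together with Ecel1, which is no peptide precursor but a neuronal membrane protein of the neprilysin family of peptidases. They were picked by name from 35976 counted genes after their difference between sgEgfr and sgRosa was known, so their values in that comparison are a description and not a test. All 10 had counts in each of the 6 libraries, and 8 passed the filter on low counts, by which 13159 genes were tested. Vip, with 65 counts over all libraries, and Crh, with 39, did not pass.

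The libraries were made from neuron-enriched cells of the amygdala of male C57BL/6J mice. In the 3 sgEgfr libraries, astrocytes of the amygdala had received an adeno-associated virus (AAV) with a guide RNA against Egfr, the receptor for epidermal growth factor, and Cas9 under the astrocyte promoter GfaABC1D. In the 3 sgRosa libraries the guide was directed at the Rosa26 locus, a control site. The protocol, which covers more than these samples, also names sgRosa or sgAreg in microglia, whereas the labels of these libraries name only sgEgfr or sgRosa. All mice had more than 2 weeks of viral expression, 7 days of restraint in a tube, then fear conditioning on 1 day and extinction of the fear over 3 days, so no unstressed group was compared; the ages of the mice are not given in the sources used here. The guide was meant for astrocytes, and Egfr RNA in a neuron fraction does not show whether it worked there. Egfr had 6, 18 and 6 counts in sgEgfr libraries, against 1, 26 and 23 in sgRosa libraries (log2 fold change -0.65, SE 1.03, edgeR adjusted p = 0.928).

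Neuropeptides are cut from larger precursors by prohormone convertases, trimmed and amidated in dense-core vesicles, and released to act on G protein-coupled receptors. In the amygdala, somatostatin, neuropeptide Y, enkephalin, dynorphin, substance P and corticotropin-releasing hormone mark largely GABAergic neurons, many of them in the central nucleus and the neighbouring striatum. Cholecystokinin is made by excitatory neurons as well as by a class of interneurons. Several precursor genes, somatostatin foremost, are known to be switched on by neuronal activity through the cyclic AMP response element (CRE) of their promoters.

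The CRE is shown in the promoters below because 4 of the 8 genes with a promoter in the RefSeq table (GRCm38.p6) carried its 5-letter core, TGACG on either strand. The windows searched ran from 250 bases before to 50 bases after the annotated start, and the 250 bases before it are printed, 5′ to 3′ on the strand of the gene, with the CRE core in capitals. The core lay in 20.8% of all 32851 promoter windows, so a match in a given gene is not rare. The full palindrome TGACGTCA, in which the core occurs on both strands, lay in 1.79% of windows and among these genes in Sst alone, 48 bases before the RefSeq start. Sst is at chr16:23890845-23891094, minus strand; Tac1 at chr6:7554811-7555060, plus strand; Cck at chr9:121495695-121495944, minus strand; and Vip at chr10:5638968-5639217, plus strand.
Sst: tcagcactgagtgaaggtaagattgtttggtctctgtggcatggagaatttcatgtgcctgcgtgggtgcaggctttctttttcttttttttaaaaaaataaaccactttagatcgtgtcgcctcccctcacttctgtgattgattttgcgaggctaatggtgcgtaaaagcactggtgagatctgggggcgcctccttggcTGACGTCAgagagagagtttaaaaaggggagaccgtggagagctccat
Tac1: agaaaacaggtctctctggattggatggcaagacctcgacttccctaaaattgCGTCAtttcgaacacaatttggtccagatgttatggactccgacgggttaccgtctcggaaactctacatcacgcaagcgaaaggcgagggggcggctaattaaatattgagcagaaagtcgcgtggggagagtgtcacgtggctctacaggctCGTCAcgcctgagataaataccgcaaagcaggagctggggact
Cck: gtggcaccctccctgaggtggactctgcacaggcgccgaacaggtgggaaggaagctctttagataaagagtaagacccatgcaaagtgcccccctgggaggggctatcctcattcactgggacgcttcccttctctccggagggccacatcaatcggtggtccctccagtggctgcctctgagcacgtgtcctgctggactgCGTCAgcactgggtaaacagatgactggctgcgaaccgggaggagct
Vip: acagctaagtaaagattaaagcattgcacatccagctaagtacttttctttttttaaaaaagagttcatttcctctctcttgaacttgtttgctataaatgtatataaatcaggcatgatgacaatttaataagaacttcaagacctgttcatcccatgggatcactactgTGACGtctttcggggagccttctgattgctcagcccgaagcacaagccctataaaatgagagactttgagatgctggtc
In Tac1 the core began 197 and 43 bases before the RefSeq start, in Cck 47 bases and in Vip 79 bases before it. GENCODE, used for the gene positions below, begins Sst and Tac1 farther upstream, at 23890958 and 7554879. By those starts the Sst palindrome and the nearer Tac1 core lie inside the gene. No core was found in the windows of Npy, Ecel1, Pomc or Pdyn, and Penk and Crh had no entry. The AP-1 letters TGANTCA, present in 7.81% of all windows on either strand, were in none of the windows of these genes. Pomc held AGGTCA (16.3% of all windows, either strand) 62 bases and TATAAA (13.6%, either strand) 25 bases before its start, and TATAAA also lay 30 bases before the start of Vip. A match of letters does not show that a factor binds there.

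Of the 10 genes, 9 had a lower mean level in sgEgfr than in sgRosa libraries and Cck a higher one. Among the 8 tested genes 7 had a log2 fold change below 0, against 53.8% of all tested genes; the median of the 8 was -1.81 and that of all tested genes -0.04. Levels in 5 genes, Sst, Npy, Penk, Ecel1 and Pomc, were lower in every sgEgfr library than in any sgRosa library, a pattern shown by 7.6% of tested genes. No gene passed an adjusted p of 0.05 in edgeR's quasi-likelihood test (0.0% of 13159 tested genes). At an unadjusted p of 0.05, 6 of the 8 genes were lower, against 2.72% of tested genes. With DESeq2, 2 of 9065 genes with an adjusted p (0.0221%) were called lower in sgEgfr libraries, and these were Pomc and Sst. Because the genes were chosen on this comparison, nothing further is read from these counts. In such bulk samples fewer cells of a type and less RNA per cell cannot be told apart.

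**Figure D1:**
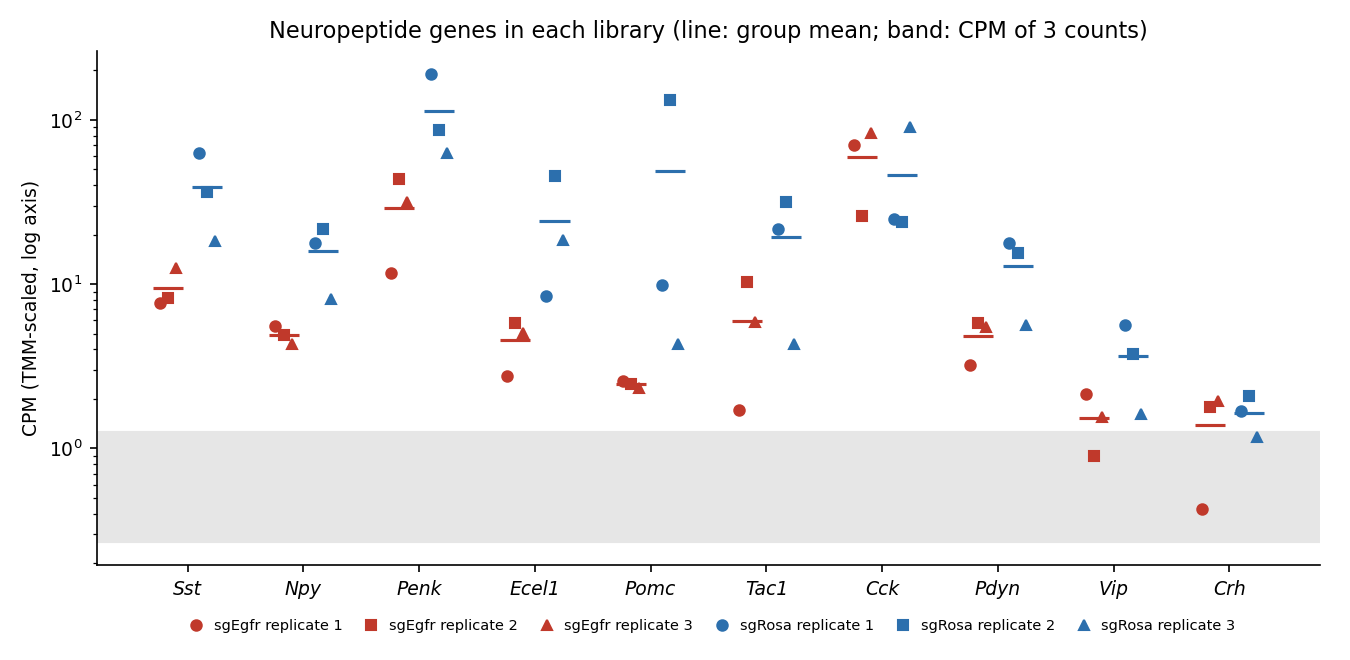
Read counts scaled to library size (CPM, TMM-scaled, log axis) of the 10 genes in each library, sgEgfr in red and sgRosa in blue, with the group mean as a line and a grey band at the CPM that 3 counts are worth (0.270 to 1.25 over the libraries). The sgRosa replicate 3 triangle is the lowest sgRosa value for 8 of the 10 genes and falls below at least 1 sgEgfr value for Tac1, Pdyn, Vip and Crh.

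Sst encodes a peptide that inhibits secretion and neuronal firing. It is on chromosome 16 (GRCm38, 23889573 to 23890958, minus strand, 2 exons). Sst had 36, 37 and 32 counts in sgEgfr libraries, against 222, 87 and 204 counts in sgRosa libraries. At TMM-scaled levels this was 7.68, 8.26 and 12.5 CPM in sgEgfr libraries, against 62.4, 36.3 and 18.4 CPM in sgRosa libraries. The sgEgfr values lay close together, the sgRosa values spread over 3.4-fold, and the groups did not overlap. Sst averaged 9.47 ± 2.62 CPM in sgEgfr and 39.0 ± 22.2 CPM in sgRosa libraries (SD, n = 3 each), with a log2 fold change of -2.05 (SE 0.47, edgeR adjusted p = 0.820, DESeq2 adjusted p = 0.0429). Without sgRosa replicate 1, the library with the most Sst, the log2 fold change was -1.51.

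Npy, which is made with Sst in a class of GABAergic neurons, lies on chromosome 6 (49822710 to 49829507, plus strand). It had 5.54, 4.91 and 4.29 CPM in sgEgfr libraries, against 17.7, 21.7 and 8.10 CPM in sgRosa libraries. The groups did not overlap, and the sgEgfr libraries differed by 1.29-fold at most. Npy had a log2 fold change of -1.64 (SE 0.42). Npy gave 72.2, 59.5 and 34.4 counts per 100 Sst counts in sgEgfr libraries, against 28.4, 59.8 and 44.1 in sgRosa libraries. This ratio, which does not depend on library scaling, overlapped between the groups.

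The opioid precursors follow. Penk, from which the enkephalins are cut, lies on chromosome 4 (4133531 to 4138819, minus strand). It had 11.7, 43.3 and 31.6 CPM in sgEgfr libraries, against 190, 86.9 and 62.7 CPM in sgRosa libraries. No sgEgfr library reached a sgRosa library, although sgEgfr replicate 2 and sgRosa replicate 3 came within 1.5-fold of each other. Its log2 fold change was -1.97 (SE 0.57), and it was -1.35 without sgRosa replicate 1. Penk shares 233 exon bases with A830012C17Rik on the opposite strand, which had 0 counts in all 6 libraries. Pdyn, the source of the dynorphins, lies on chromosome 2 (129686565 to 129699844, minus strand). It had 3.20, 5.80 and 5.46 CPM in sgEgfr libraries, against 17.7, 15.5 and 5.67 CPM in sgRosa libraries. The groups overlapped, since sgRosa replicate 3 lay below sgEgfr replicate 2. Pdyn had a log2 fold change of -1.40 (SE 0.50).

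Pomc, the precursor of ACTH, the melanocortins and beta-endorphin, is known mainly from pituitary cells and from neurons of the arcuate nucleus. It lies on chromosome 12 (3954951 to 3960642, plus strand). Pomc had 12, 11 and 6 counts in sgEgfr libraries, against 35, 316 and 48 counts in sgRosa libraries. That is 2.56, 2.45 and 2.34 CPM in sgEgfr libraries, against 9.84, 132 and 4.32 CPM in sgRosa libraries. The groups did not overlap, but 73.8% of all Pomc counts came from sgRosa replicate 2. Pomc had a log2 fold change of -4.26 (SE 1.31, edgeR adjusted p = 0.820, DESeq2 adjusted p = 0.0242), and it was -1.47 without sgRosa replicate 2.

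Pituitary genes were counted in the same library. Of a list of 10 pituitary genes, 7 had at most 1 count outside sgRosa replicate 2. In that library Cga, the common subunit of the glycoprotein hormones, had 190 counts, Prl (prolactin) 59, Gh (growth hormone) 35, Fshb 10 and the transcription factors Pitx1 and Tbx19 12 and 5 counts. The list summed to between 2.56 and 6.92 CPM in sgEgfr libraries, against 2.25, 148 and 4.32 CPM in sgRosa libraries. Tshb and Lhb were not confined to it: Tshb had 4, 22 and 8 counts in sgEgfr libraries, against 8, 5 and 8 in sgRosa libraries, and Lhb had 8, 8 and 2 counts in sgEgfr libraries, against 0, 25 and 39 in sgRosa libraries. Members with counts numbered 2, 3 and 2 in sgEgfr libraries, against 1, 9 and 3 in sgRosa libraries, and Pou1f1 was at 0 throughout. The part of pituitary RNA in the Pomc level was not tested. Hypothalamic peptide genes were uneven too: Pmch had 48 counts in sgRosa replicate 2 and at most 5 elsewhere, while Agrp, a marker of the arcuate nucleus, had at most 2 counts in any library. Avp had 3, 433 and 0 counts in sgEgfr libraries, against 1, 69 and 1 in sgRosa libraries.

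**Figure D2:**
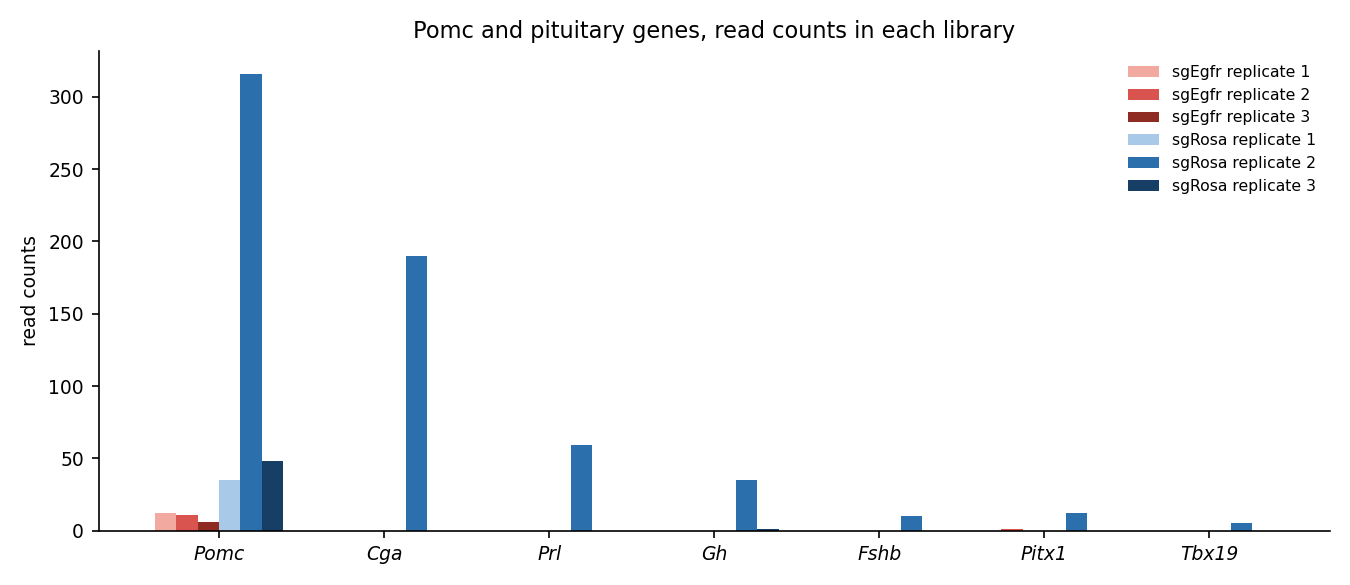
Read counts of Pomc and of 6 pituitary genes in each library, sgEgfr bars in red and sgRosa bars in blue. The bar of sgRosa replicate 2 stands alone for the pituitary genes, with 190 counts of Cga, and is the tallest for Pomc, with 316 counts; the other sgRosa libraries had 35 and 48 Pomc counts.

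Tac1, on chromosome 6 (7554879 to 7565834, plus strand), had 1.71, 10.3 and 5.84 CPM in sgEgfr libraries, against 21.7, 31.7 and 4.32 CPM in sgRosa libraries. The groups overlapped, with sgRosa replicate 3 below 2 of the sgEgfr libraries. The log2 fold change was -1.65 (SE 0.82), -2.38 without sgEgfr replicate 2 and -1.09 without sgRosa replicate 2. Ecel1, on chromosome 1 (87147655 to 87156521, minus strand), had 2.77, 5.80 and 5.07 CPM in sgEgfr libraries, against 8.44, 45.5 and 18.5 CPM in sgRosa libraries. The groups did not overlap, and the highest level was again in sgRosa replicate 2. The log2 fold change was -2.39 (SE 0.63), and -1.54 without that library.

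Cck, on chromosome 9 (121489824 to 121495694, minus strand), had 69.9, 26.1 and 83.0 CPM in sgEgfr libraries, against 24.7, 23.8 and 90.2 CPM in sgRosa libraries. Its order differed from that of the other genes: sgRosa replicate 3, the lowest sgRosa library for 8 of the 10 genes, had the most Cck of all. The log2 fold change was 0.34 (SE 0.62), 1.28 without sgRosa replicate 3 and 0.07 without sgRosa replicate 1. Vip, on chromosome 10 (5639218 to 5647617, plus strand), had 10, 4 and 4 counts in sgEgfr libraries, against 20, 9 and 18 counts in sgRosa libraries. Crh, on chromosome 3 (19693401 to 19695396, minus strand), had 2, 8 and 5 counts in sgEgfr libraries, against 6, 5 and 13 counts in sgRosa libraries. Both rest on few counts, against a floor of 3, overlapped between the groups and were not tested. Vip averaged 1.53 CPM in sgEgfr and 3.67 CPM in sgRosa libraries, and Crh 1.39 CPM in sgEgfr and 1.65 CPM in sgRosa libraries. Without the filter the log2 fold change was -1.17 (SE 0.69) for Vip and -0.20 (SE 0.79) for Crh. No difference is read from these values.

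Summed over the 10 genes, the level was 108, 110 and 154 CPM in sgEgfr libraries, against 359, 399 and 215 CPM in sgRosa libraries. The mean was 124 ± 25.9 CPM in sgEgfr and 325 ± 97.0 CPM in sgRosa libraries (SD, n = 3 each). Without Pomc and Cck the sums were 35.2, 81.0 and 68.2 CPM in sgEgfr libraries, against 325, 244 and 120 CPM in sgRosa libraries. The groups stayed apart in each of these sums, but the genes were chosen on this comparison, so this is no support for a difference. Leaving out Pomc and Cck was decided after seeing the data, and Cck alone had a higher mean in sgEgfr libraries. Within a group the tested genes of the set spread over a median of 1.95-fold in sgEgfr and 3.59-fold in sgRosa libraries, against 1.46-fold and 1.86-fold for all tested genes.

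Compared per kilobase of exon, the order of the genes differed between the groups. In sgEgfr libraries Cck led with 45.7 ± 22.8 CPM per kb, ahead of Penk with 17.7 ± 9.76, Sst with 13.1 ± 3.63 and Npy with 8.68 ± 1.1 (SD, n = 3). The other 6 genes averaged between 0.449 (Vip) and 1.86 (Pomc) CPM per kb. Ranges of neighbours in this order overlapped except between Sst and Npy and between Npy and Pomc. In sgRosa libraries Penk led with 69.2 ± 41.2 CPM per kb, ahead of Sst with 54.2 ± 30.7, Pomc with 37.0 ± 54.8, Cck with 35.4 ± 29.2 and Npy with 28.0 ± 12.4. Ecel1, Tac1, Pdyn, Crh and Vip followed, between 6.90 and 1.08 CPM per kb. The place of Pomc rests on sgRosa replicate 2, its 3 values being 7.47, 100 and 3.28 CPM per kb. Here the ranges of neighbours separated only between Npy and Ecel1 and between Pdyn and Crh. Lengths are of all merged exons, which can understate the level of a gene with rarely used exons.

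The peptide genes were next set against Gad1 and Gad2, which encode the enzymes that make GABA and so stand for the amount of GABAergic RNA. Gad1 had 19.6, 29.9 and 29.2 CPM in sgEgfr libraries, against 64.4, 72.3 and 27.3 CPM in sgRosa libraries. Gad2 had 13.2, 39.5 and 27.3 CPM in sgEgfr libraries, against 64.4, 77.3 and 14.7 CPM in sgRosa libraries. Both overlapped between the groups, because sgRosa replicate 3 lay within the sgEgfr range. The log2 fold change was -1.05 (SE 0.39) for Gad1, -0.95 (SE 0.63) for Gad2 and -1.25 (SE 0.57) for Slc32a1, the vesicular GABA transporter, none of which passed the adjusted test (edgeR adjusted p of at least 0.820).

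Relative to Gad1 and Gad2 the differences were smaller, and 8 of the 10 genes still had a lower mean in sgEgfr libraries. Sst had 23.4, 11.9 and 22.1 counts per 100 counts of Gad1 and Gad2 in sgEgfr libraries, against 48.5, 24.3 and 43.8 in sgRosa libraries. The groups did not overlap, but the highest sgEgfr and the lowest sgRosa value were nearly equal. On log2 CPM the mean Sst difference was -0.996 (SE 0.44) relative to Gad1 and Gad2, against -1.86 before. Penk had 35.7, 62.4 and 55.9 counts per 100 in sgEgfr libraries, against 147, 58.1 and 150 in sgRosa libraries, so that sgRosa replicate 2 fell within the sgEgfr range. Pdyn had 9.74, 8.36 and 9.66 counts per 100 in sgEgfr libraries, against 13.8, 10.3 and 13.5 in sgRosa libraries. Pdyn and Sst were the 2 genes of the set whose groups did not overlap on this ratio, which 2 of 13159 tested genes (0.0152%), these same ones, showed in the lower direction. The lower mean Gad1 and Gad2 levels of sgEgfr libraries raise this ratio there for every gene, so the small share is no support for either. In Pdyn the nearest values were 9.74 and 10.3. The log2 measure used a prior count of 2 and the mean of the Gad1 and Gad2 log2 CPM in place of their summed counts. On it neither Pdyn nor Sst stayed separate, and 0.0% of tested genes did in that direction. For Sst this was a near tie, with -1.030 in sgEgfr replicate 1 against -1.032 in sgRosa replicate 2.

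The remaining genes overlapped on the ratio. Npy averaged 10.5 ± 5.52 counts per 100 in sgEgfr and 15.9 ± 3.01 in sgRosa libraries (SD, n = 3 each). Ecel1 was even in sgEgfr libraries, at 8.44, 8.36 and 8.97 counts per 100, against 6.55, 30.4 and 44.0 in sgRosa libraries. Pomc averaged 5.16 ± 2.30 in sgEgfr and 35.4 ± 45.8 in sgRosa libraries, and Tac1 10.1 ± 4.80 in sgEgfr and 16.1 ± 5.50 in sgRosa libraries. Vip was nearly equal, with 3.51 ± 2.68 in sgEgfr and 3.58 ± 0.958 in sgRosa libraries, and Crh and Cck had higher means in sgEgfr libraries. The median difference of the 10 genes was -0.65 on the log2 scale, against 0.87 for all tested genes, a shift set by the lower Gad1 and Gad2 levels of sgEgfr libraries. Set against other neuronal genes the median changed size: it was -0.34 relative to Slc32a1 and -2.06 relative to 13 pan-neuronal genes, on which Cck and Crh also turned to negative values.

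**Figure D3:**
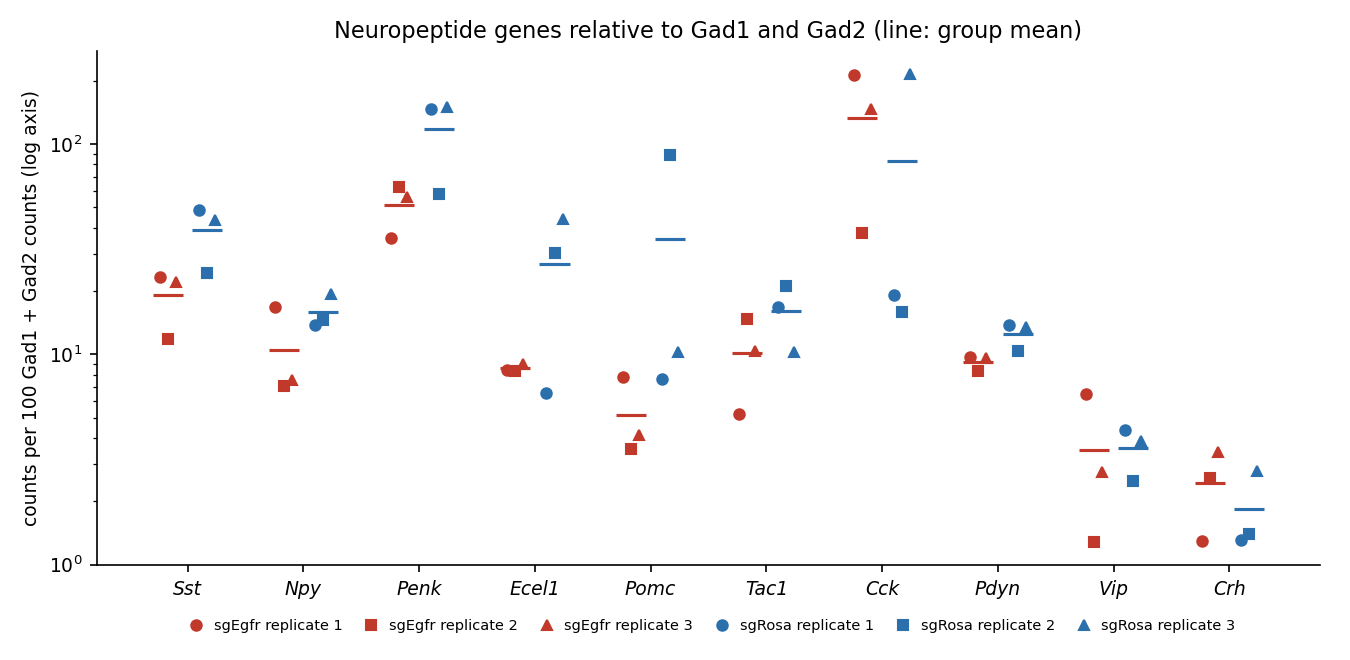
Read counts of each gene per 100 counts of Gad1 and Gad2 in the same library (log axis), sgEgfr in red and sgRosa in blue, with the group mean as a line. Only Sst and Pdyn keep all sgEgfr values below all sgRosa values, and in Sst the nearest values are 23.4 in an sgEgfr and 24.3 in an sgRosa library.

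The marker lists of several cell types were likewise one-sided. Of the GABAergic markers 5 of 9 were tested and all 5 were below 0 (median log2 fold change -0.95). Of 13 markers of central amygdala and striatal-type neurons 11 were tested and 10 were below 0 (median -0.72), among them Ppp1r1b (-0.66, SE 0.23), Rgs9 (-1.69, SE 0.63) and Meis2 (-0.62, SE 0.23). All 9 glutamatergic markers (median 0.81) and all 13 pan-neuronal markers (median 0.51) were above 0, and all 8 oligodendrocyte markers were below 0 (median -0.83). Among interneuron class markers 6 of 8 tested genes were below 0 (median -0.20), with Calb2 (-0.60) and Pvalb (-0.55) at the smallest p. No gene of these lists passed the adjusted test. Leaving out 1 library at a time, the GABAergic median was -1.39 at its lowest, with sgRosa replicate 3 left out, and -0.55 at its highest, with sgRosa replicate 2 left out. The glutamatergic median was 0.45 at its lowest, when sgRosa replicate 1 was left out, and 1.79 at its highest, when sgRosa replicate 3 was. For pan-neuronal markers the same omissions gave 0.26 and 1.10. For oligodendrocyte markers it ran from -1.46 (without sgEgfr replicate 2) to -0.39 (without sgRosa replicate 1).

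The split was by library as much as by group. The GABAergic list summed to 105, 226 and 129 CPM in sgEgfr libraries, against 271, 303 and 127 CPM in sgRosa libraries. The glutamatergic list summed to 2672, 1678 and 2177 CPM in sgEgfr libraries, against 1372, 913 and 3026 CPM in sgRosa libraries. In both, sgRosa replicate 3 lay nearer to the sgEgfr libraries than to the other sgRosa libraries, as it did for Cck, Tac1, Pdyn and Gad2. The 13 pan-neuronal genes, set against the label of neurons, summed from 3079 to 4822 CPM in sgEgfr libraries, against 1983 to 4899 CPM in sgRosa libraries. Oligodendrocyte genes were higher, with 22074 to 56252 CPM in sgEgfr libraries, against 23777 to 68997 CPM in sgRosa libraries. The part of these differences in the peptide gene levels was not tested.

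**Figure D4:**
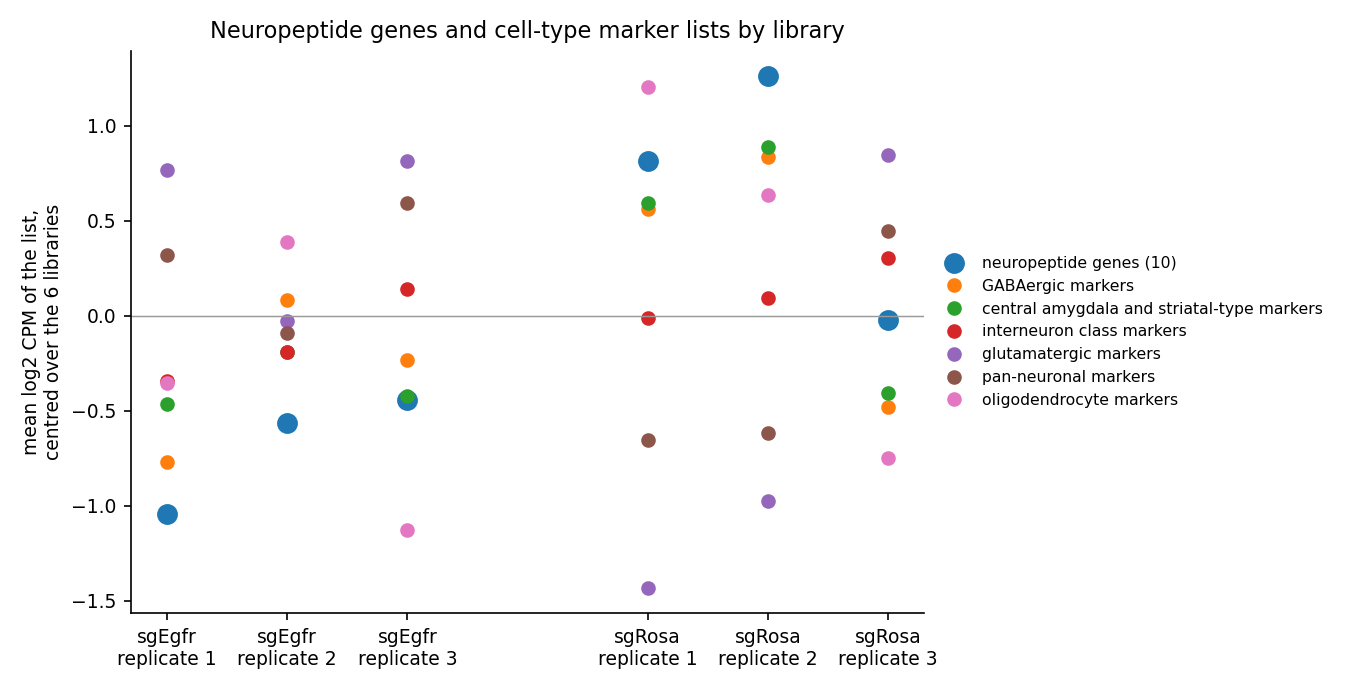
Mean log2 CPM (prior count 2) of the 10 neuropeptide genes and of 6 marker lists in each library, centred on the mean over the 6 libraries, with sgEgfr libraries on the left. In sgRosa replicates 1 and 2 the neuropeptide, GABAergic and striatal-type lists lie high and the glutamatergic list low. In sgRosa replicate 3 the GABAergic, striatal-type and glutamatergic lists lie near those of the sgEgfr libraries. Its neuropeptide list lies above all of them, at 3.28 before centring against 2.26, 2.74 and 2.86.

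Genes of other sources differed between single libraries. Choroid plexus genes summed to 2232, 44.0 and 7.40 CPM in sgEgfr libraries, against 15.5, 30.9 and 3455 CPM in sgRosa libraries. With sgEgfr replicate 1 and sgRosa replicate 3 both left out, the median log2 fold change of the 8 tested peptide genes was -1.97, with Sst at -2.27, Penk at -1.87, Tac1 at -1.68 and Cck at 1.16. All 8 microglia markers were above 0 (median 1.35, and 0.76 without sgEgfr replicate 2), with sums of 349, 515 and 37.0 CPM in sgEgfr libraries, against 68.9, 132 and 179 CPM in sgRosa libraries. Astrocyte markers (8 of 9 below 0, median -0.17), endothelial markers (5 of 7 below 0, median -0.29) and choroid plexus markers (4 of 6 tested below 0, median -0.51) held no called gene. Of 13 hypothalamic markers only Tbx3 was tested (0.85), and of the pituitary markers none was. Tbx3 had 208 CPM in sgEgfr replicate 3 and 51.5 CPM in sgRosa replicate 3. Nkx2-1 of the same list had 0 counts in both, so the Tbx3 value does not stand for the list. Total counts ran from 2520426 to 4849404 in sgEgfr libraries, against 2348897 to 10152812 in sgRosa libraries.

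The receptors of the peptides lay on both sides of 0. Of 24 receptor genes 11 were tested, 7 above and 4 below 0, with a median log2 fold change of 0.15 and no call. The smallest p belonged to Mc5r, a melanocortin receptor, which had 4.05, 8.26 and 2.73 CPM in sgEgfr libraries, against 0.844, 2.09 and 2.16 CPM in sgRosa libraries. These levels rest on few counts, 19, 37 and 7 in sgEgfr libraries, against 3, 5 and 24 in sgRosa libraries. Mc5r had a log2 fold change of 1.54 (SE 0.58, edgeR adjusted p = 0.820). Npy2r, a neuropeptide Y receptor found on axon terminals, had 1.49, 2.45 and 7.01 CPM in sgEgfr libraries, against 5.06, 6.68 and 12.8 CPM in sgRosa libraries (-1.28, SE 0.63). Sstr2, a somatostatin receptor, had 47, 19 and 25 counts in sgEgfr libraries, against 2, 5 and 76 counts in sgRosa libraries (1.17, SE 0.74). Scaled for depth, Sstr2 was lowest in sgRosa replicate 1, where its 2 counts lay below the floor of 3 counts. Vipr1, a receptor for Vip, was at 1.03 (SE 0.91).

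Receptor levels also differed between libraries of the same group. Cckbr, the main brain receptor of cholecystokinin, had 32.4, 14.1 and 43.3 CPM in sgEgfr libraries, against 9.28, 16.3 and 52.6 CPM in sgRosa libraries, highest like Cck in sgRosa replicate 3. Oprk1 and Tacr1, the receptor of substance P, were highest in sgRosa replicate 2, at 6.27 and 5.01 CPM. Without sgRosa replicate 3 the median of the receptor list was 1.38, and without sgEgfr replicate 3 or sgRosa replicate 1 it was below 0. The opioid receptors were low: Oprk1, the dynorphin receptor, was tested (-0.59, SE 0.56), whereas no library held more than 3 Oprm1 counts and none held any of Npy4r.

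**Figure D5:**
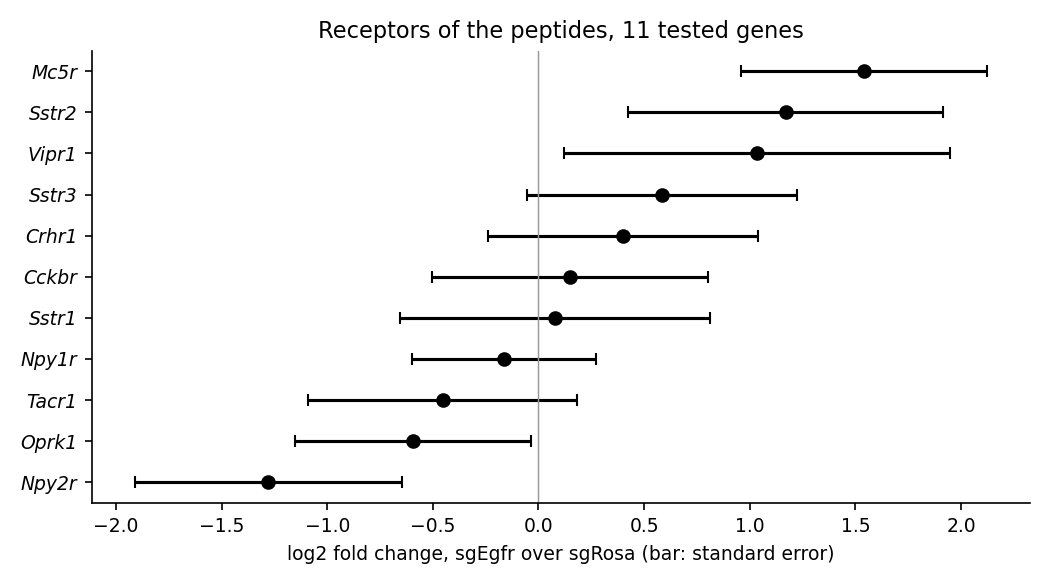
Log2 fold change, sgEgfr over sgRosa, of the 11 tested receptor genes with its standard error as a bar. The values run from -1.28 for Npy2r to 1.54 for Mc5r, lie on both sides of 0, and none passed the adjusted test.

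Genes that make, store and break down peptides had list medians near 0. All 18 genes of peptide processing and dense-core vesicles were tested, 12 above and 6 below 0, with a median log2 fold change of 0.07 and no call. Cpe, the carboxypeptidase that trims most precursors, averaged 920 ± 112 CPM in sgEgfr and 915 ± 322 CPM in sgRosa libraries (SD, n = 3 each). The genes with the smallest p were Furin (0.51, SE 0.24), a convertase of the secretory pathway; Qpct (-0.71, SE 0.37), which forms amino-terminal pyroglutamate; Pcsk1n (-0.51, SE 0.29), the precursor of a convertase inhibitor; and Chga (-1.13, SE 0.67), chromogranin A of dense-core vesicles. Chga had 47.3, 26.8 and 62.0 CPM in sgEgfr libraries, against 30.1, 206 and 63.4 CPM in sgRosa libraries. Its high value was again in sgRosa replicate 2, the library with pituitary genes. Of 14 peptidases 11 were tested, 4 above and 7 below 0 (median -0.10), with Npepps (0.43), Ece1 (0.51), Ece2 (-0.40) and Lnpep (0.50) at the smallest p.

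Other neuropeptide precursors were mostly too low to test, with 5 of 27 tested, 4 of them below 0 (median -0.22). Cartpt had 1.71, 3.35 and 7.79 CPM in sgEgfr libraries, against 4.50, 17.1 and 5.94 CPM in sgRosa libraries. Nts, the neurotensin precursor, had 0.640, 2.68 and 5.46 CPM in sgEgfr libraries, against 10.4, 6.68 and 2.16 CPM in sgRosa libraries (-1.16, SE 0.82). Both overlapped between the groups. Vgf (-0.22) and Adcyap1 (0.28) lay closer to 0. Gal, the galanin precursor, had 0, 70 and 0 counts in sgEgfr libraries, against 0, 93 and 3 in sgRosa libraries, the same pair of replicate 2 libraries that held Avp and Oxt.

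Activity-induced genes, among them Fos and Jun, whose products bind AP-1 elements, were 7 above and 9 below 0 of 16 tested (median -0.48), with no call. Fos had 147, 322 and 127 CPM in sgEgfr libraries, against 667, 675 and 157 CPM in sgRosa libraries (-1.33, SE 0.61). Jun had 394, 479 and 305 CPM in sgEgfr libraries, against 597, 1329 and 421 CPM in sgRosa libraries (-0.99, SE 0.46). Fos was lowest of its group in sgRosa replicate 3, as were 8 of the 10 peptide genes, but not Ecel1 or Cck. Among sgEgfr libraries Fos was highest in replicate 2, as were 4 of the 10 genes, Tac1 among them. Sst was highest there in replicate 3 and Npy in replicate 1. Without sgRosa replicate 2 the median of the activity-induced list was above 0. The part of these genes in the peptide gene levels was not tested. Arc (-0.62) and Nr4a3 (0.82) differed in sign.

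The genes whose pattern over the 6 libraries was most like that of Sst were found by the mean absolute difference of centred log2 CPM among 9676 tested genes with a mean log2 CPM of at least 3. The median gene differed by 0.995. The closest 5 were Lrrn3 (0.355), Scn4b (0.414), Hs3st1 (0.415), Npy (0.419) and Gng7 (0.419). Lrrn3, a leucine-rich repeat protein of neurons, had 29.6, 19.2 and 29.2 CPM in sgEgfr libraries, against 110, 53.0 and 32.0 CPM in sgRosa libraries. Scn4b, a sodium channel subunit, had 6.82, 6.02 and 6.62 CPM in sgEgfr libraries, against 36.8, 22.1 and 4.23 CPM in sgRosa libraries. Gng7, a G protein subunit abundant in striatal neurons, had 92.3, 83.2 and 79.1 CPM in sgEgfr libraries, against 280, 189 and 118 CPM in sgRosa libraries. Penk was sixth in this order, while Tac1 was 991st, Ecel1 2763rd and Cck 9216th; Pomc, Pdyn, Vip and Crh were too low to be ranked.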

How the data were processed

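Bulk RNA sequencing of 6 libraries, 3 per group, was grouped by the sample titles. The authors deposited raw whole-number counts per gene with no normalization. The submitters' processing notes name FastQC 0.11.9 and MultiQC 1.11 for quality, fastp 0.23.2, STAR 2.7.5c with mm10, featureCounts 2.0.1 and edgeR 3.42.4. Annotation, options and strand setting were not stated in any label or header, and reads of a gene and an antisense partner cannot be told apart. A further 3 columns matched no sample and were not used. Per the labels' protocols, papain-digested tissue was enriched for neurons with a magnetic kit, and each library used 5 ng of RNA. Such libraries are amplified without molecular identifiers, so floors cover counting error only. Separate animals are not stated for the replicates; the p-values therefore reflect only how these libraries vary.

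Genes passing filterByExpr (minimum count 10, minimum total count 15) were compared in R 4.3.3 with edgeR 4.0.16, by its quasi-likelihood test with TMM scaling, robust dispersion and Benjamini-Hochberg adjustment over all 13159 tested genes (threshold 0.05). The common biological coefficient of variation was 0.355. Fold changes are sgEgfr over sgRosa. Standard errors of fold changes come from the F statistic, those of differences relative to Gad1 and Gad2 from the spread of log2 CPM (prior count 2) in each group. Exon lengths and positions come from GENCODE (GRCm38). All pairs of libraries differed by more than sampling noise (lowest chi-square per degree of freedom 10.4). The members and the 17 other gene lists were chosen with earlier results of these data known. Named were all members, Gad1, Gad2, Slc32a1 and up to 4 genes per other list with the smallest unadjusted p. Marker genes at or near 0 and the 5 genes most like Sst, predicted genes left out, were also named. Egfr, Cpe, Cckbr, Oprk1, Oprm1, Npy4r, Tacr1, Tshb, Lhb, Gal, Avp, Oxt, Pmch and Agrp were named after their values were seen. Alternatives were RLE, upper-quartile and total-count scaling, no filter and a stricter filter, DESeq2 1.42.0, limma-voom (limma 3.58.1), a replicate block, leaving out each library, other reference genes, a prior count of 0.5 and promoter windows of 250 bases. Leaving out both libraries with choroid plexus RNA, and sums without Pomc and Cck, were chosen after seeing the data.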

Additional observations from a re-analysis of the deposited data

How the results depend on the processing

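No gene was called with edgeR, and 759 of 13159 had an unadjusted p under 0.05 (822 with limma-voom, which called 0, and 787 with DESeq2). Without the filter 1 gene was called and with DESeq2 25; no other alternative called any, leaving out each library included. With a replicate block 0 genes were called and the median of the 8 tested peptide genes was -1.76. Correlations of same-numbered libraries were -0.03, 0.48 and 0.28, against -0.45 to 0.21 for libraries of different numbers. The labels do not state a pairing, and these values do not settle whether there was one. That median lay between -2.22 (without sgRosa replicate 3) and -1.41 (without sgRosa replicate 2), with 7 of 8 genes below 0 in every alternative run. Of 120 alternative values of single genes, 0 changed sign and 2 moved beyond the spread, both for Pomc. The median difference relative to Gad1 and Gad2 (-0.65) became -0.34 with Slc32a1, -0.90 with the GABAergic list and -2.06 with the pan-neuronal list. With the last, Cck became -0.050 and Crh -0.86; Vip became 0.19 with Slc32a1 and ran from -0.66 to 0.36 as single libraries were left out. List medians that changed sign in that way ran from -0.59 to 0.10 for other precursors, -0.15 to 1.38 for receptors, -0.16 to 0.43 for processing genes, -0.16 to 0.080 for peptidases, -0.42 to 0.011 for interneuron markers, -0.65 to 0.21 for activity-induced genes, -3.84 to 3.48 for choroid plexus genes, -0.65 to 0.23 for astrocyte markers and -0.65 to 0.47 for endothelial markers. Without both libraries rich in choroid plexus RNA, an alternative chosen after seeing the data, interneuron markers became 0.32 and choroid plexus genes 0.34. The cause was not tested. Depth limits Vip and Crh, which rest on few counts, against a floor of 3.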
